A study of Rattus norvegicus with 21 samples.

Results

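Sln, Myl4, Myl7 and Mybphl encode proteins of heart muscle that, within the heart, are made mainly in the atria. Their transcripts were followed in RNA from left ventricles of aged rats treated with relaxin (RLX), a hormone of pregnancy. These 4 genes were taken by name from the deposited gene tables, which hold 26597 genes, and all 4 were found in every table. The study asked how aging and RLX change gene expression in the left ventricle of F-344 Brown/Norway rats of both sexes. Total RNA was sequenced from 21 rats, with ribosomal sequences removed and stranded paired-end libraries. The 24-month-old RLX rats, 4 females and 3 males, received RLX at 400 ug/kg/day for 14 days from subcutaneous mini pumps. The 24-month-old controls, 4 females and 3 males, received the vehicle, sodium acetate. The 9-month-old controls, 4 females and 3 males, also received vehicle. Libraries of 9-month rats given RLX are not analysed here. The sources used here do not say how the ventricle was parted from the atria at dissection.

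In the adult rodent heart, atrial and ventricular muscle cells use different members of the same protein families in the contractile apparatus and the calcium store. Myl4 and Myl7 are the essential and the regulatory light chains of atrial myosin, and their ventricular counterparts are Myl3 and Myl2. Sarcolipin, the product of Sln, is a small membrane protein that inhibits the SERCA calcium pump, a role that phospholamban (Pln) has in ventricular muscle. Mybphl encodes a protein related to cardiac myosin-binding protein C (Mybpc3) and is known in the mouse from the atria and the conduction system.

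The sources used here do not name the genome build of the deposited tables. In their coordinates, Sln (ENSRNOG00000009047) lies on the plus strand at chr8:57012681-57016928. Myl4 (ENSRNOG00000050675) lies on the plus strand at chr10:92390125-92398028 and Mybphl (ENSRNOG00000037082) on the plus strand at chr2:230629249-230643000. Myl7 (ENSRNOG00000014409) lies on the minus strand at chr14:86827680-86830562. The 4 genes are thus on separate chromosomes and share no promoter.

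The promoters of Myl4 and Mybphl are shown because the 2 genes were high in the same libraries, as described further on. Of the 4 genes, 3 (Myl4, Myl7 and Mybphl) matched the RefSeq promoter table of the GRCr8 build. Each sequence is the 250 bases before the annotated start, 5′ to 3′ on the gene's strand, at chr10:89975900-89976149 (plus strand) for Myl4 and chr2:198693202-198693451 (plus strand) for Mybphl. All 3 windows lie inside the annotated span of their gene, which begins farther upstream. Capitals mark matches on either strand to the TATAAA motif, to AGGTGT (a core that T-box factors bind) or to the GATA motif.
Myl4: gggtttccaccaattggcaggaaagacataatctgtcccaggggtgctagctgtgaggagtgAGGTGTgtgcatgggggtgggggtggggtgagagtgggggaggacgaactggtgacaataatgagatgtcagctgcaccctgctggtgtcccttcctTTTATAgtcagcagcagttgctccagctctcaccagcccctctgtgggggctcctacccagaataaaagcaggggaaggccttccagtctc
Mybphl: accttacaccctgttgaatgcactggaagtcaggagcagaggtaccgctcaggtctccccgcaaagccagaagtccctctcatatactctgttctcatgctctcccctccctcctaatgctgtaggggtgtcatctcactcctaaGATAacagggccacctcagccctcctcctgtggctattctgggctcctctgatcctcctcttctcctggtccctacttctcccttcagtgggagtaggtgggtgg
Myl4 held 1 match to AGGTGT, at position -188 from the start, and 1 to TATAAA on the minus strand, at position -91. Mybphl held 1 match to GATA, at position -105. The Myl7 window held none of these 3 motifs. None of the 3 windows held a CArG box or a MEF2 site, and CANNTG, searched on both strands, had 3 matches in Myl4, 2 in Myl7 and 0 in Mybphl. No motif searched was present in all 3 windows. Among 33469 promoter windows of the same length, GATA was present in 55.9%, CANNTG in 65.5%, TATAAA in 12.9%, AGGTGT in 11.6%, the MEF2 site in 2.96% and the CArG box in 1.497%.

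Library totals ran between 11997512 and 19027947 counts. Mitochondrial genes took 30.9% to 49.6% of the counts. Levels are given as CPM, counts scaled to a common library size with TMM factors over all 21 libraries. A library with 0 counts of a gene is compatible with up to 3 counts, which is 0.159 to 0.289 CPM depending on depth. This limit covers counting error only. Of the 10 ventricular genes listed, Myl2, Myh7 and Myl3 were high in all 6 groups. Their group means were 3072 to 5894 CPM for Myl2, 3285 to 6222 CPM for Myh7 and 3233 to 4892 CPM for Myl3. Myh7 was also on the list of cardiac stress genes.

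Sln and Mybphl were near the detection limit in most ventricles, Myl4 was low in all of them and Myl7 was detected well in all. Sln had 3 counts or fewer in 12 of 21 libraries, with 0 counts in 2 of them and 370 in the highest. Mybphl had 3 counts or fewer in 13 libraries, with 0 in 6 and 78 in the highest. Myl4 had 38 to 1150 counts and spanned 23.8-fold in CPM between its lowest and highest library. Myl7 had 383 to 6888 counts and spanned 11.5-fold. In bulk tissue, fewer cells of a type and less RNA of these genes per cell cannot be told apart.

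Sln stood at 8.60 CPM in female RLX rat 1, against 0.235, 0.133 and 0.146 CPM in female RLX rats 2, 4 and 6. The 24-month female controls had 19.9 CPM in rat 5 and 1.14, 1.38 and 1.69 CPM in rats 2, 4 and 6, and the 9-month female controls had 2.76 CPM in rat 5 and 0.109, 0.124 and 0.181 CPM in rats 1, 3 and 4. Each female group thus held 1 library far above its other 3, and the ranges of the 3 groups overlapped. In males, Sln was at 0, 0 and 0.120 CPM in RLX rats 2, 3 and 7, at 1.06, 0.131 and 0.0557 CPM in 24-month controls 12, 8 and 11, and at 5.85, 0.430 and 0.254 CPM in 9-month controls 4, 3 and 2. The male RLX and 24-month control ranges also overlapped, and the 24-month and 9-month controls overlapped through rat 12.

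Mybphl was counted 47, 1, 1 and 0 times in female RLX rats 1, 2, 4 and 6. It was counted 78, 12, 10 and 10 times in 24-month female controls 5, 2, 4 and 6, and 28, 0, 0 and 0 times in 9-month female controls 5, 1, 3 and 4. The single high libraries of the female groups were thus the same rats as for Sln. In males the counts were 1, 0 and 0 in RLX rats 2, 3 and 7, 4, 2 and 3 in 24-month controls 12, 8 and 11, and 16, 3 and 1 in 9-month controls 4, 3 and 2. Every male RLX library lay below every male 24-month control library in CPM, on totals of 1 count and 9 counts over the 3 libraries of each group.

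Myl4 stood at 38.9, 3.36, 5.80 and 6.21 CPM in female RLX rats 1, 2, 4 and 6, against 61.9, 7.24, 11.8 and 15.3 CPM in 24-month female controls 5, 2, 4 and 6. The 9-month female controls had 27.97, 7.13, 2.60 and 3.44 CPM in rats 5, 1, 3 and 4. The same 3 female rats were again the highest of their groups. In males, Myl4 was at 4.00, 3.21 and 5.59 CPM in RLX rats 2, 3 and 7, at 18.1, 5.32 and 5.07 CPM in 24-month controls 12, 8 and 11, and at 37.0, 4.39 and 3.98 CPM in 9-month controls 4, 3 and 2. All 6 groups overlapped with the group next to them in the order of medians.

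Myl7 stood at 185, 167, 119 and 215 CPM in female RLX rats 1, 2, 4 and 6. It had 371, 66.9, 79.1 and 213 CPM in 24-month female controls 5, 2, 4 and 6, and 184, 74.4, 116 and 97.1 CPM in 9-month female controls 5, 1, 3 and 4. RLX rat 1, the highest library of its group for the other 3 genes, was second to rat 6 for Myl7. In males, Myl7 was at 74.0, 32.3 and 51.1 CPM in RLX rats 2, 3 and 7, at 62.0, 77.7 and 53.2 CPM in 24-month controls 12, 8 and 11, and at 176, 41.9 and 69.6 CPM in 9-month controls 4, 3 and 2. Rat 12, the highest 24-month male control for Sln, Myl4 and Mybphl, was not the highest for Myl7.

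**Figure D1:**
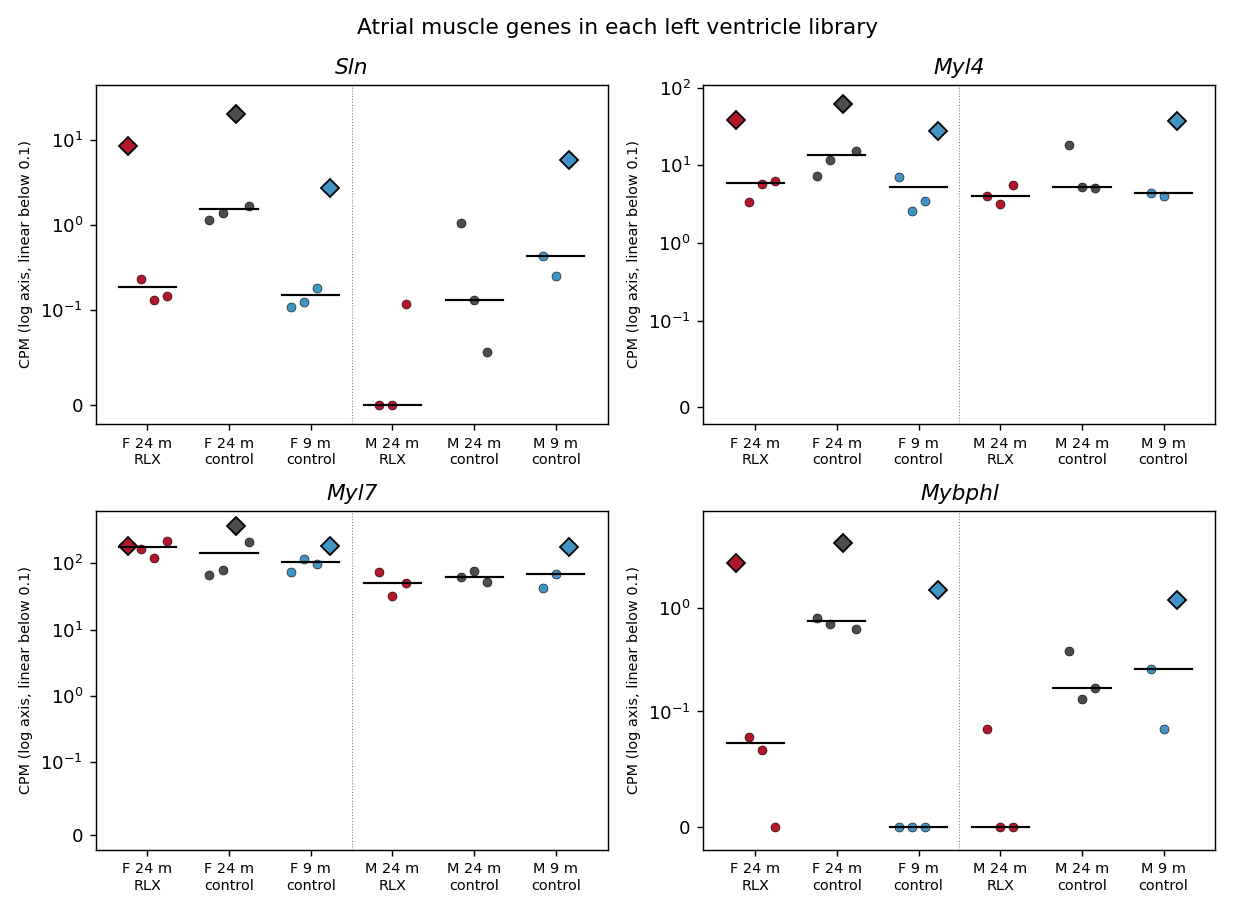
CPM of Sln, Myl4, Myl7 and Mybphl in each of the 21 libraries, with 1 panel per gene, the 6 groups along the horizontal axis and a log axis that is linear below 0.1 CPM. Points are libraries, black bars are group medians and diamonds are the 4 libraries with Myl4 above 4 times their group's median, which for Sln lie at 8.60, 19.9, 2.76 and 5.85 CPM, each the highest of its group.

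Ordered by median, Sln ran at 1.54 CPM in 24-month female controls, 0.430 in 9-month male controls, 0.190 in female RLX rats, 0.152 in 9-month female controls, 0.131 in 24-month male controls and 0 in male RLX rats. The medians of Myl4 lay between 13.5 CPM in 24-month female controls and 4.00 CPM in male RLX rats. For Myl7 they lay between 176 CPM in female RLX rats and 51.1 CPM in male RLX rats, and for Mybphl between 0.748 CPM in 24-month female controls and 0 in both 9-month female controls and male RLX rats. For all 4 genes, neighbouring groups in these orders overlapped in CPM, so no step between neighbours was larger than the spread between rats.

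Levels per gene length, as the authors' RPKM, place the 4 genes far below their ventricular counterparts. Myl7 was at 0.102% to 2.00% of Myl2 and Myl4 at 0.0612% to 1.81% of Myl3 over all 21 libraries. Where both genes had at least 10 counts, Sln was at 0.248% to 5.81% of Pln over 8 libraries, and Mybphl at 0.155% to 0.974% of Mybpc3 over 7 libraries. Among the 4 genes, Myl7 had 1.84 to 26.7 times the RPKM of Myl4.

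The libraries that stood apart were described by Myl4, the gene among Sln, Myl4 and Mybphl with the most counts. In 4 libraries Myl4 was above 4 times its group's median: female RLX rat 1 (7.11 times), 24-month female control 5 (4.57 times), 9-month female control 5 (5.89 times) and 9-month male control 4 (9.69 times). The next library, 24-month male control 12, was at 2.86 times. This rule was set after the values were seen, and Myl4 itself picks the libraries. Set against the median of the other rats of the group, Sln was at least 39.4-fold higher in RLX rat 1, 14.4-fold higher in 24-month female control 5, at least 15.6-fold higher in 9-month female control 5 and 17.1-fold higher in 9-month male control 4. The bounds use a floor of 3 counts per library of the group. Mybphl was at least 12.5-fold, 6.07-fold, at least 8.41-fold and at least 4.63-fold higher in the same libraries.

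Myl7 and Nppa, the precursor of atrial natriuretic peptide, did not follow in all of these libraries. Myl7 was 1.11 times the median of the others in female RLX rat 1, 4.69 times in 24-month female control 5, 1.90 times in 9-month female control 5 and 3.16 times in 9-month male control 4. The same ratio for Nppa was 1.19, 31.5, 1.45 and 4.66. Nppa is atrial in the healthy adult and is also known as a gene that stressed ventricular muscle turns on. For Nppb, the brain natriuretic peptide precursor, the ratio was 0.975, 1.90, 0.910 and 1.29, and for Myl2 it was 1.05, 1.05, 0.975 and 0.637. In 24-month female control 5 and 9-month male control 4, all 4 genes and Nppa were thus at 3.16 times the median of the others or more. In the other 2 libraries Sln, Myl4 and Mybphl were high while Nppa was at 1.45 times or less.

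**Figure D2:**
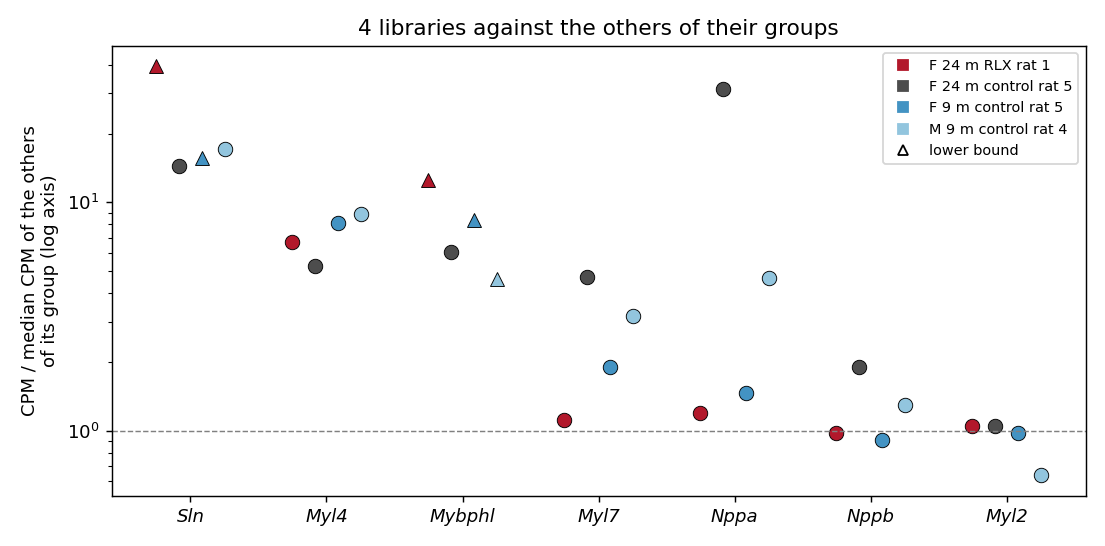
CPM in each of the 4 libraries divided by the median CPM of the other rats of its group, on a log axis, for Sln, Myl4, Mybphl, Myl7, Nppa, Nppb and Myl2. Triangles are lower bounds at 3 counts. Sln, Myl4 and Mybphl lie above 4 in all 4 libraries, while Myl7 lies between 1.11 and 4.69 and Nppa between 1.19 and 31.5.

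Markers of other cells also differed in these 4 libraries. Of the other atrial genes listed (17, among them the potassium channel genes Kcna5 and Kcnj3 and the transcription factor genes Nr2f2 and Tbx5), 9 of 15 with at least 5 counts were at their group's highest in female RLX rat 1, 7 of 15 in 24-month female control 5, 1 of 15 in 9-month female control 5 and 7 of 14 in 9-month male control 4. Over all genes the shares at their highest there were 24.2%, 27.2%, 25.1% and 32.1%. Bmp10, a growth factor gene of atrial muscle, had 2 counts or fewer in every library. The atrial list without the 4 genes summed to 1161 to 1699 CPM in female RLX rats, 763 to 7150 CPM in 24-month female controls and 754 to 1048 CPM in 9-month female controls. Nppa made up 6191 of the 7150 CPM in 24-month female control 5 and 92.6 of the 754 CPM in 9-month female control 3. In males it summed to 1150 to 1492 CPM with RLX, 1146 to 1393 CPM in 24-month controls and 732 to 1363 CPM in 9-month controls.

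Fat cell markers were at their group's highest for 4 of 5 genes in female RLX rat 1, 9-month female control 5 and 9-month male control 4 each, and for 0 of 6 genes in 24-month female control 5. Smooth muscle markers were at their highest for 6 of 6 genes in 9-month male control 4 and for 1, 0 and 0 of 6 in the others in the order above. Conduction markers with at least 5 counts were at their highest for 1, 0, 2 and 2 of 4 genes in the 4 libraries, and markers of the heart's outer surface for 4 of 6, 5 of 8, 3 of 6 and 1 of 3. Skeletal muscle markers were at their highest for 3 of 6, 1 of 7, 4 of 8 and 5 of 8 genes. Mitochondrial genes took 36.5% of the counts in female RLX rat 1 (40.3% to 46.8% in the other 3 of its group), 35.4% in 24-month female control 5 (30.9% to 42.7% in the others), 31.1% in 9-month female control 5 (34.6% to 39.9%) and 39.4% in 9-month male control 4 (40.0% to 41.6%). The part of these other tissues and of the mitochondrial share in the levels of Sln, Myl4 and Mybphl was not tested.

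A gene was called where the false discovery rate was 0.05 or lower, the fold change exceeded 1.5 in either direction and at least 1 of the groups compared had a mean RPKM of 1 or more. RLX in aged females was compared with vehicle in aged females. Sln, Myl4 and Mybphl were lower in 3 of 4 RLX rats than in every control, and RLX rat 1 lay among the controls. With edgeR's quasi-likelihood test, fitted on all genes, 0 of 4 genes passed the thresholds, where 0.00% of 12591 genes tested passed. At an unadjusted p under 0.05 the count was also 0 of 4, beside 14.1% of all genes. Sln had a log2 fold change of -1.36 ± 1.53 (SE, edgeR adjusted p = 0.741) and Myl4 of -0.83 ± 1.03 (edgeR adjusted p = 0.772). Mybphl was at -1.07 ± 1.24 (edgeR adjusted p = 0.749) and Myl7 at -0.10 ± 0.57 (edgeR adjusted p = 0.961). For Myl7 the mean log2 CPM was 0.23 higher with RLX, so its sign depended on how the libraries were averaged.

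The female RLX values turned on single libraries. Without RLX rat 1 the log2 fold change was -5.12 for Sln, -2.24 for Myl4 and -4.86 for Mybphl (edgeR adjusted p = 0.3502, 0.384 and 0.182). Without 24-month control 5 the sign changed for all 4 genes, to 0.73 for Sln, 0.24 for Myl4, 0.12 for Mybphl and 0.49 for Myl7. Without both, an alternative added after the values were seen, Sln was at -3.00 (edgeR adjusted p = 0.0732), Myl4 at -1.16 (0.192) and Mybphl at -3.66 (0.107). Exact permutation of the 4 and 4 rats gave p = 0.314 for Sln, 0.371 for Myl4, 0.714 for Myl7 and 0.114 for Mybphl, where the smallest p it allows is 0.0286 (2-sided).

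Aging in females was compared as 24-month against 9-month controls. Sln was at 1.14 CPM or more in all 4 aged controls and at 0.181 CPM or less in 3 of 4 younger controls, and Mybphl had at least 10 counts in all 4 aged controls and 0 in 3 of 4 younger ones. The groups overlapped through 9-month control 5. Again 0 of 4 genes passed the thresholds by edgeR's quasi-likelihood test, where 2.77% of 12696 genes passed (2.29% higher and 0.480% lower in the aged), and 0 of 4 had an unadjusted p under 0.05, beside 21.2% of all genes. The 352 genes called in all were 102 without 9-month control 4, 123 without 9-month control 1 and 170 without 24-month control 6. Leaving out 1 of the other libraries gave 285 to 395 genes. Each time 0 of the 4 genes were among those called. Sln had a log2 fold change of 2.90 ± 1.43 (edgeR adjusted p = 0.301) and Mybphl of 2.05 ± 1.26 (0.403). Myl4 was at 1.23 ± 1.01 (edgeR adjusted p = 0.542) and Myl7 at 0.64 ± 0.61 (0.603). All 4 were positive.

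Leaving out single libraries kept these signs but moved the sizes. Without 24-month control 5, Sln was at 0.80, Myl4 at 0.17, Myl7 at 0.05 and Mybphl at 0.87. Without 9-month control 5, Sln was at 5.41, Myl4 at 2.45, Myl7 at 0.94 and Mybphl at 7.74 (edgeR adjusted p = 0.171, 0.211, 0.485 and 0.0927), with Mybphl at 0 counts in all 3 remaining younger rats. Without both, Sln passed all thresholds, at 3.31 ± 0.46 (edgeR adjusted p = 0.00744), and was the 1 of 4 genes to do so in a fit that called 407 genes. Mybphl was then at 6.53 (edgeR adjusted p = 0.0132) with a mean RPKM under 1, Myl4 at 1.39 (0.129) and Myl7 at 0.35 (0.751). These 2 libraries were picked from the data by Myl4, which was high with Sln, so this fit is no independent test of Sln. Exact permutation of all 8 rats gave p = 0.114 for Sln and Mybphl, 0.229 for Myl4 and 0.629 for Myl7.

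RLX in aged males could be tested by the fit for Myl4 and Myl7 alone, since Sln and Mybphl did not pass the filter on low counts. Of these 2 genes, 0 passed the thresholds by edgeR's quasi-likelihood test, where 0.00% of 12232 genes passed, and 0 had an unadjusted p under 0.05, beside 12.0% of all genes. Myl4 had a log2 fold change of -1.09 ± 0.52 (edgeR adjusted p = 0.453) and was at -0.23 without control 12. Myl7 was at -0.27 ± 0.28 (edgeR adjusted p = 0.730). For Mybphl the groups did not overlap, with all 3 RLX libraries lower and an exact permutation p of 0.1, the smallest that 3 against 3 can give. Groups of the same kind did not overlap for 19.8% of all genes tested, and for 11.3% of all genes tested RLX was the lower group. Sln gave an exact permutation p of 0.2, Myl4 of 0.3 and Myl7 of 0.4.

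Aging in males was compared as 24-month against 9-month controls, and both genes tested changed sign without 1 library. Of Myl4 and Myl7, 0 passed by edgeR's quasi-likelihood test, where 0.00% of 12220 genes passed, and 0 had an unadjusted p under 0.05, beside 8.55% of all genes. Myl4 was at -0.74 ± 0.91 (edgeR adjusted p = 0.900) and Myl7 at -0.60 ± 0.46 (0.795). Without 9-month control 4 both were positive, at 1.15 and 0.20. Without 24-month control 12, Myl4 was at -1.58. The exact permutation p was 0.5 for Sln, 1.0 for Myl4, 0.8 for Myl7 and 0.7 for Mybphl. With no filter on low counts, edgeR gave Sln -2.65 with RLX and -2.65 with age in males (adjusted p = 0.589 and 0.825) and Mybphl -2.68 and -1.28 (0.538 and 0.823).

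**Figure D3:**
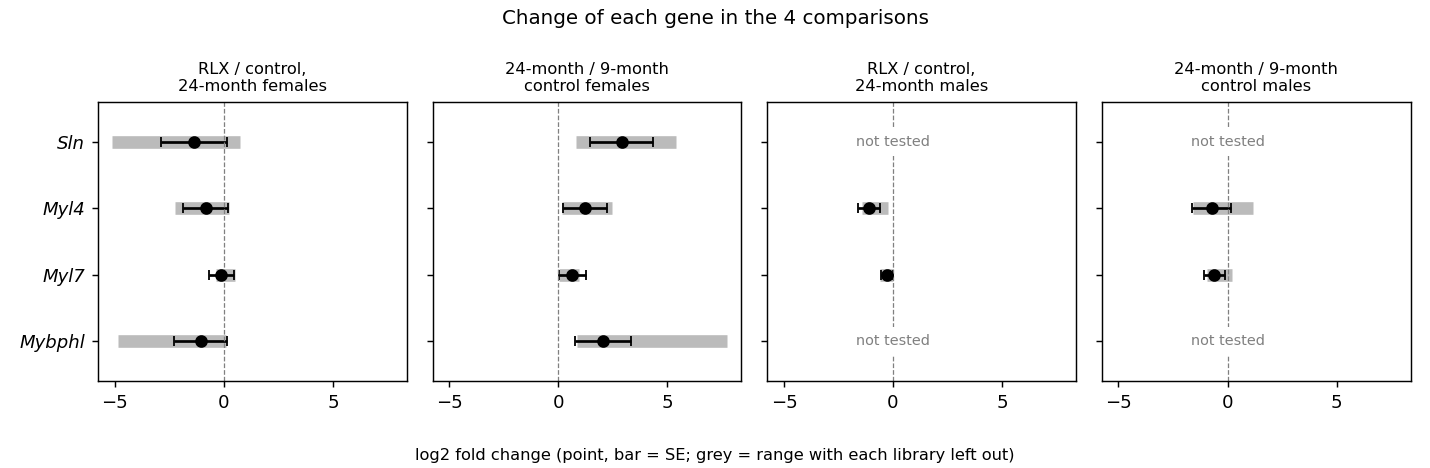
Log2 fold change (points) with its SE (bars) for the 4 genes in the 4 comparisons, with the range over fits that leave out 1 library each in grey. Sln and Mybphl in males are marked as not tested. In females with RLX the grey ranges reach both sides of 0 for all 4 genes, and in female aging they stay above 0.

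DESeq2, edgeR's exact test and voom with limma also called 0 of these 4 genes in the female comparisons, and neither Myl4 nor Myl7 in the male ones. Sln and Mybphl did not pass the filter on low counts in males, so these tools did not test them there. Over all genes, DESeq2 called 139 with RLX in females, 520 with age in females, 110 with RLX in males and 59 with age in males. The exact test called 108, 493, 16 and 69 and voom 0, 333, 0 and 0 in the same order. DESeq2 returned no adjusted p for Sln and Mybphl in females and for Myl4 with RLX in males, so it gave no call there. The sexes were compared by the female log2 fold change minus the male one. For aging, Sln was at 5.58 ± 2.35 (SE, edgeR interaction test, adjusted p = 0.213, unadjusted p = 0.0364). Myl4 was at 1.95 (adjusted p = 0.549), Myl7 at 1.22 (0.491) and Mybphl at 3.34 (0.385). Thus 0 of these 4 genes passed, where 395 of 13090 genes tested did. Within each sex, the aging values were positive in females and negative in males. For RLX the differences were 1.21, 0.26, 0.18 and 1.63 (adjusted p = 0.932, 0.960, 0.945 and 0.859), and 0 of 13017 genes tested passed. The RLX values within each sex were negative in both, so a positive difference is a smaller fall in females. For Sln and Mybphl in males these signs are from fits without the low-count filter. The sexes were loaded at different concentrations, so sex and sequencing run conditions cannot be told apart.

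Whether Sln, Myl4 and Mybphl vary together was asked over libraries, apart in each sex. The female libraries fell into separate ranges of Sln, 6 with 3 counts or fewer and 6 with 17 or more, so no coefficient is given over all 12. The 6 female libraries of the upper range are the whole 24-month control group, RLX rat 1 and 9-month control 5. RLX rat 1, 9-month control 5 and 24-month control 5 are the female libraries already described as high in all 3 genes. Over these 6, Pearson's r of log2 CPM was 0.946 for Sln and Myl4, 0.971 for Sln and Mybphl and 0.914 for Myl4 and Mybphl. The exact permutation p was 0.00139, 0.00833 and 0.0139, and 0.0125, 0.0375 and 0.0417 after adjustment over 9 relations. Spearman's rho was 1.0, 0.771 and 0.771 (adjusted exact permutation p = 0.025, 0.308 and 0.308). Without the 2 libraries farthest from the median of the first gene, r was 0.984, 0.775 and 0.962 over the remaining 4. Among the 6 female libraries of the lower range r was -0.460, 0.530 and -0.0476, and among 7 male libraries with 5 Sln counts or fewer it was 0.298, 0.546 and 0.246. None of these 6 relations passed by exact permutation, and at such counts a relation was not detectable. The ranges were set on Sln after the values were seen. The upper range holds libraries already described as high in all 3 genes. Its coefficients and p-values are thus a description and no independent test that these genes vary together.

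**Figure D4:**
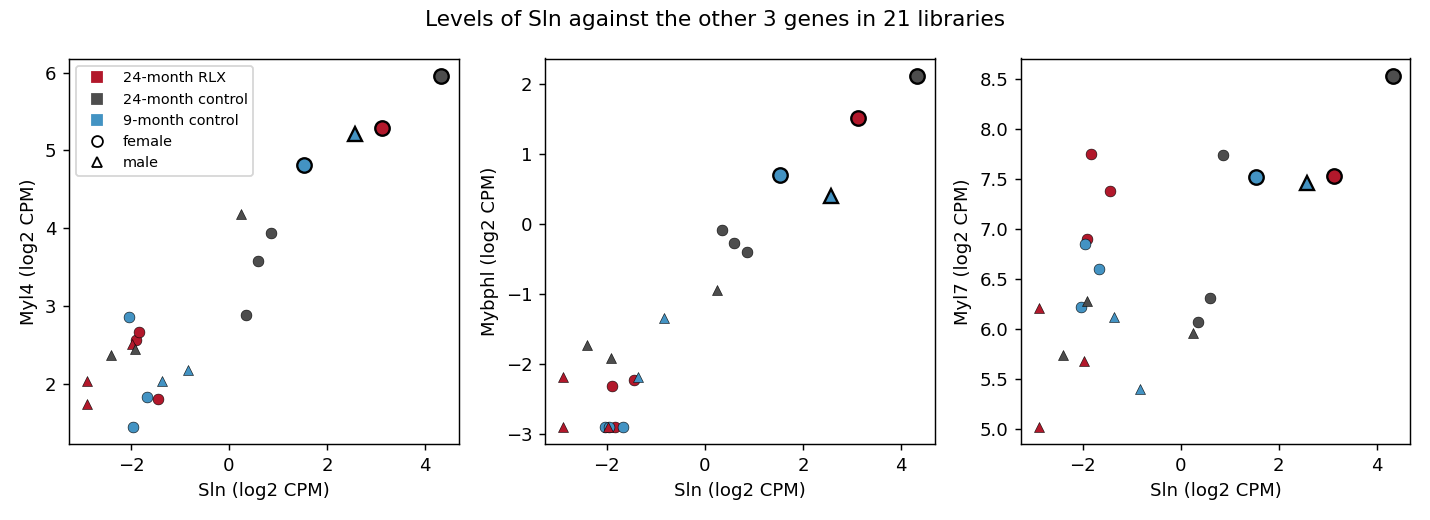
Log2 CPM of Myl4, Mybphl and Myl7 against that of Sln in the 21 libraries, with circles for females, triangles for males and a heavy outline for the 4 libraries with Myl4 above 4 times their group's median. The upper range of Sln rises with Myl4 and Mybphl, while the libraries with 3 Sln counts or fewer form a cloud at the left edge.

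Ratios between the genes were taken by RPKM. Sln over Myl4 ran between 0.156 and 0.858 in the 8 libraries with at least 10 counts of both, a 5.50-fold range. Mybphl over Myl4 ran between 0.0195 and 0.0676 in 7 libraries, a 3.47-fold range, and Sln over Mybphl between 6.21 and 21.6, a 3.49-fold range. Myl7 over Myl4 spanned 14.5-fold over 21 libraries, lowest in 24-month male control 12 (1.84), 9-month male control 4 (2.56), female RLX rat 1 (2.56) and 24-month female control 5 (3.22) and highest in female RLX rat 2 (26.7). Over the same 8 libraries as Sln over Myl4, Myl7 over Myl4 ran between 1.84 and 7.51, a 4.08-fold range, and over the 7 libraries of Mybphl over Myl4 it spanned 2.94-fold. These ranges are no wider than those of the other ratios in the same libraries. Nppa over Myl4 spanned 20.4-fold over 21 libraries.

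Other genes of the same families and of the ventricle were described by count. In the atrial list without the 4 genes, 0 were called in any comparison among 12 to 14 tested by edgeR, with a median log2 fold change of -0.04 for RLX in females, 0.06 for aging in females, 0.14 for RLX in males and 0.27 for aging in males. The medians over all genes tested lay between -0.01 and 0.01. Genes of ventricular and general heart muscle had negative medians in female aging. The median log2 fold change was -0.35 over 10 ventricular genes, 1 of them called lower, and -0.32 over 12 cardiomyocyte genes, 1 of them called lower, where 0.480% of all genes were called lower. The genes called were Irx5, a ventricular transcription factor gene (-0.74, edgeR adjusted p = 0.0366), and Myh6, the alpha myosin heavy chain (-0.81, 0.00903). Among the cardiac transcription factor genes listed, Nkx2-5 was called lower (-0.60, 0.0407). Pln, the counterpart of Sln, fell by 0.55 on the log2 scale and Atp2a2, which encodes the SERCA pump that both regulate, fell by 0.45 (edgeR adjusted p = 0.0209 and 0.03003), both short of the fold threshold. With RLX in females 10 of 10 ventricular genes and 12 of 12 cardiomyocyte genes had a positive log2 fold change (medians 0.35 and 0.30), and 0 were called by edgeR, where 4 of 10 and 9 of 12 had an unadjusted p under 0.05, beside 14.1% of all genes. Female control 24-month rats are in both comparisons.

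The genes most like the 4 in pattern were taken as those whose log2 CPM correlated best, over the libraries of a sex, with the mean of the 4 genes' standardized log2 CPM. They differed between the sexes. Over 12 female libraries the highest r were 0.898 for Kdelc2, 0.880 for Pttg1ip, 0.879 for Siglec5 and 0.877 for Aif1l, and in males the same genes had -0.66, 0.49, -0.22 and -0.14. Over 9 male libraries the highest r were 0.950 for Tagln and Apoe, 0.934 for Aebp1 and 0.932 for Pih1d1, and in females these had 0.06, 0.66, 0.65 and 0.20. Among the 10 male genes, Nbl1 was also high in females (0.926 in males, 0.801 in females, rank 41 of 11534 genes). The 99th percentile over all genes was 0.746 in females and 0.784 in males, and Nppa ranked 252 and 1302. These coefficients describe which libraries are high and share depth and scaling with the 4 genes.

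A last description took the genes that were highest of their group in all 4 libraries with high Myl4, after the values were seen. They were 109 of 12947 genes with at least 5 counts in each of these libraries. At 2-fold above the median of the others or more, 5 genes were left with a floor of 3 counts per library: Sln, Myl4, Mybphl, Cyp1b1 and Serpina3n. With a floor of 3 counts at 1 fixed depth for all libraries, Mybpc1 and C1qtnf3 joined them. At 1.5-fold the counts were 12 and 13. Cyp1b1, a cytochrome P450 gene, was 2.31, 2.93, 2.84 and 2.65 times the median of the others in female RLX rat 1, 24-month female control 5, 9-month female control 5 and 9-month male control 4. Serpina3n, a secreted protease inhibitor gene, was at least 4.00 times in the first of these and 2.80, 15.1 and 4.28 times in the others. Myl4 picked the libraries, so its own place here is no result. Sln and Mybphl had already been seen as the highest of their groups in these libraries, so their places are no result either.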

How the data were processed

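Total RNA of left ventricles from 21 rats was analysed. The authors removed ribosomal sequences, mapped the reads with Biomedical Genomics Workbench and deposited raw total counts per gene. The series' design text speaks of 4 technical replicates a sample, while the tables hold 1 column of counts for each rat, and how these relate is not stated. The deposited RPKM values are the authors' counts per gene length and library total. The sources used here name no genome build. The tables' own CPM and TPM values are left aside here.

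The 2 groups of each comparison were fitted with edgeR 4.0.16 (R 4.3.3): filterByExpr, TMM, a robust quasi-likelihood fit over all genes, and Benjamini-Hochberg adjustment. Log2 CPM used a prior count of 2. SE is the log2 fold change divided by the square root of F. Replicates are separate rats.

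The genes named are the 4 genes above, listed genes that pass a test, a few set marker genes and the 10 genes most alike per sex. These 4 genes and the lists were chosen with earlier results of these data known. Alternatives were DESeq2 1.42.0, limma 3.58.1 with voom, edgeR's exact test, other scalings and filters, the replicate block, and libraries left out. Scripts were tested on simulated data. Same-numbered females correlated at -0.189 to 0.153 in their deviations from group means, so the rat numbers were not taken as pairs.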

Additional observations from a re-analysis of the deposited data

Results flagged for a closer look

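In 8 of the 12 female checks (4 genes in 3 groups of 4 rats) the highest library lay farther from the next, as a share of the group's range, than Dixon's critical value for 4 values allows. That value gives about 1 such case in 20 groups by chance only for normally distributed values. Here it was set against CPM without a log, with Sln and Mybphl near 0 counts in most libraries, so this rate need not hold. Checks on the same libraries are also not independent. Groups of 3 males were not checked. In female RLX rat 1, Sln stood at 8.60 CPM (next 0.235), Myl4 at 38.9 CPM (next 6.21) and Mybphl at 2.73 CPM (next 0.0782). In 24-month female control 5, Sln stood at 19.9 CPM (next 1.69), Myl4 at 61.9 CPM (next 15.3) and Mybphl at 4.198 CPM (next 0.804). In 9-month female control 5, Sln stood at 2.76 CPM (next 0.181) and Mybphl at 1.49 CPM (next 0). Myl7 passed in no group. The cause was not tested.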

How the results depend on the processing

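Of 212 alternative values of the members' fits, 195 kept their direction and side of the threshold. The main fits called 0 of these genes, so staying on that side says little. DESeq2 values without an adjusted p count as kept, and the setting by false discovery rate alone repeats the main fold changes. In females with RLX, Myl7 changed sign to 0.22 with voom and limma, 0.62 with the replicate block, 0.03 without RLX rat 4 and 0.47 without the 2 libraries with the highest Myl4, and all 4 genes did without 24-month control 5 (Sln 0.73, Myl4 0.24, Myl7 0.49, Mybphl 0.12). Leaving out 1 library each gave -5.12 to 0.73 for Sln, -2.24 to 0.24 for Myl4, -0.37 to 0.49 for Myl7 and -4.86 to 0.12 for Mybphl. With the rat number as a replicate block, 2 genes were called among 18 genes in all. They were Sln (-3.01, edgeR adjusted p = 0.0442) and Myl4 (-1.16, edgeR adjusted p = 0.0376). Only rats that share a number inform this fold change, so RLX rat 1 and 24-month control 5 drop out of it. These are also the 2 libraries with the highest Myl4 of their groups, picked out above after the values were seen. Given the low correlations above, the numbers were not taken as pairs. In female aging the 2 added rules left out the same 2 libraries, so they make 1 fit. In it 1 gene, Sln, was called, at 3.31. Myl4, which was high with Sln, picked these libraries after the values were seen, so this fit is no independent test of Sln. In male aging, leaving out 1 library each gave -1.58 to 1.15 for Myl4 and -0.96 to 0.20 for Myl7, both positive without 9-month control 4 and without the highest Myl4 library of each group (0.29 and 0.21). The cause of these changes was not tested. With that last rule 0 of these genes were called for RLX in males, while 144 genes were in all.

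Over all libraries of a sex, the 3 pairs among Sln, Myl4 and Mybphl passed in both sexes by Pearson's r, which makes 6. By Spearman's rho none of the male pairs did, with adjusted permutation p = 0.251, 0.148 and 0.251. Without male 9-month control 4 and 24-month control 12, the male r was 0.298, 0.546 and 0.246. The female libraries fall into separate ranges of Sln, so the female passes also carry the step between these ranges. The permutation did not keep rats within their groups. As deviations from the group means, none of the female pairs passed by Spearman's rho (adjusted permutation p = 0.190, 0.158 and 0.184). Among the male pairs, Sln and Myl4 then passed (rho 0.979, adjusted permutation p = 0.00185) and the others did not (0.128 and 0.0650). Without the library with the highest mean of the members, 3 pairs passed by Pearson's r, all in females. In the same setting the male coefficients changed sign to -0.0401 for Sln and Nppa, 0.495 for Sln and Myl2, 0.473 for Myl4 and Myl2 and 0.7998 for Mybphl and Myl2. As deviations from the group means, Myl7 and Myl2 in females came to -0.0521 and Mybphl and Myl2 to 0.0177, and the last was 0.0133 on log2 RPKM. As deviations, 4 male relations newly passed by Pearson's r: Nppa with Sln (0.844, adjusted permutation p = 0.0129), with Myl4 (0.843, 0.0149) and with Mybphl (0.806, 0.0321), and Myl7 with Myl2 (-0.768, 0.0445). By Spearman's rho none of these 4 passed, and without the 2 farthest libraries r was 0.576, 0.515, 0.302 and -0.184. Of the 10 genes most alike, 3, 5 and 3 in females and 2, 3 and 1 in males were kept with Spearman's rho, as deviations and without the highest library. Depth limits Sln and Mybphl, which had 3 counts or fewer in 12 and 13 of 21 libraries.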
